A study of Mus musculus with 4 samples.

Results

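The genes described here encode subunits of voltage-gated calcium channels, and were chosen by name with earlier results of these data known. Of the 10 genes in the set, 9 were paired with a probeset of their own and were measured, among 22180 genes in all. The tenth, Cacnb3, which encodes a beta subunit, was not analysed here. A probeset is the group of array probes that reads the transcripts of a gene. Only Cacnb2 had a second one, and its brighter probeset stood for it. Islets came from GPR41 transgenic mice (41 Tg, written Tg below) and from their WT littermates, all on C57BL/6 and aged 5 to 6 months, and each genotype has 2 arrays. The receptor GPR41 is encoded by Ffar3 in the mouse and senses short-chain fatty acids through G proteins. The labels give no promoter or copy number for the transgene, no sex, and no statement of whether an array holds islets of 1 mouse or of several, so p-values measure the spread between these arrays.

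Voltage-gated calcium channels open when the cell membrane is depolarised. Each is built around a pore-forming alpha1 subunit, and in the high-voltage-activated types this pore assembles with an intracellular beta subunit and an extracellular alpha2delta subunit that carry it to the membrane and tune its opening. In islets, the endocrine tissue of the pancreas, glucose closes ATP-sensitive potassium channels of the beta cell, the membrane depolarises, and calcium that enters through these channels triggers the release of insulin granules. L-type channels carry much of this current in mouse beta cells, and P/Q- and R-type channels are also known there.

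Array medians lay between 6.43 and 6.47 on the deposited log2 scale, and Pearson's r across probesets (which are not independent of each other) was 0.994 between the Tg arrays, 0.991 between the WT arrays and 0.986 to 0.987 across the groups. Ffar3, which checks the labels, read 11.02 and 10.98 on the Tg arrays, against 7.09 and 6.47 on the WT arrays. The main islet hormone genes read well above the third quartile of every array, with Ins2 at 12.52 and 12.59 on the Tg arrays against 12.57 and 12.46 on the WT arrays. Gcg read 13.45 and 13.50 in Tg and 13.64 and 13.61 in WT.

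One calcium channel gene passed the test. Cacna1c, which encodes the pore of an L-type channel, was 1.83-fold lower in Tg islets, and it was the 1 of 9 measured genes with an adjusted p under 0.05. Of all 22180 genes, 0.897% passed that threshold, and 0.225% passed it with a lower value in Tg. The other 8 did not pass. Intensities of the set's probesets were not compared between genes, since each probeset responds to its own transcripts on its own scale.

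The pore of the L-type channel is encoded in islets by Cacna1c and Cacna1d. Cacna1c had log2 intensities of 9.19 and 9.13 on the Tg arrays, against 10.09 and 9.96 on the WT arrays. Both Tg arrays lay below both WT arrays, and the gap between arrays of a group was 0.057 in Tg and 0.13 in WT. The difference was -0.87 (SE 0.11, 95% confidence interval -1.14 to -0.60, n = 2 each, limma adjusted p = 0.037). Only 0.392% of all tested genes had a more negative difference. In bulk islets, fewer cells that express a gene and less of its RNA per cell cannot be told apart.

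The transcript starts of Cacna1c are shown because its call is the one in the set, and the start of Cacna1d that is richest in G and C is set beside them because it serves the same channel class. All are the 250 bases before a RefSeq start in GRCm38.p6, read 5′ to 3′ along the gene's strand. Capitals mark the GC box GGGCGG and TGACG, the core of the cAMP response element, searched on both strands, and neighbouring GC boxes may overlap. The Cacna1c windows are chr6:119196410-119196659, chr6:119108496-119108745 and chr6:118757975-118758224, and the Cacna1d window is chr14:30353487-30353736, all on the minus strand.
Cacna1c window 1: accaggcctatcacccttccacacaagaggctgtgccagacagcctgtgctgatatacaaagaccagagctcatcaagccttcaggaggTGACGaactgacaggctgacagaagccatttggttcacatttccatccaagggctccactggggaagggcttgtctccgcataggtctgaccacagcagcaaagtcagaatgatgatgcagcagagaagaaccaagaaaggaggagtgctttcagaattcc
Cacna1c window 2: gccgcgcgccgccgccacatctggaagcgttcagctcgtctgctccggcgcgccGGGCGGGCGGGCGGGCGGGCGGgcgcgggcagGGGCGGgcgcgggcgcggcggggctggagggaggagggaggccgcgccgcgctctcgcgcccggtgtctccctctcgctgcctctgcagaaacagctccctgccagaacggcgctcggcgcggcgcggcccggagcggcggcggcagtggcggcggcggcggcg
Cacna1c window 3: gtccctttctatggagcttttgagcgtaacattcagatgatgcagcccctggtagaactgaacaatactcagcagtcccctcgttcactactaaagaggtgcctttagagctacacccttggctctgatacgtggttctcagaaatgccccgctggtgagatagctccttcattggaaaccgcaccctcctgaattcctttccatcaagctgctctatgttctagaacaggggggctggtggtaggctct
Cacna1d window 2: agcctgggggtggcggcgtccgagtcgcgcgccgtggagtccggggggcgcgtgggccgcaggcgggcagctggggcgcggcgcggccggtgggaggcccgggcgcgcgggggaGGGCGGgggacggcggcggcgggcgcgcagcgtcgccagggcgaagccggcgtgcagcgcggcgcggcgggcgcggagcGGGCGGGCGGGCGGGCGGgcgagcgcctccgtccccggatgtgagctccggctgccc

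The middle Cacna1c window was 82.8% G and C with 48 CG pairs, and the Cacna1d window 86.4% with 50, against medians of 52.4% and 6.0 over 32851 windows of the same length from all genes. They held 6 and 5 matches to GGGCGG, which 32.7% of all windows contain. The outer Cacna1c windows had none of these boxes, with 51.6% and 50.4% G and C and 2 and 5 CG pairs, and the first held 1 match to TGACG, found in 17.8% of all windows. The full element TGACGTCA (1.55% of all windows) and TATAAA (12.4%) had no match in the 4 windows. The Cacna1d window shown was chosen for its G and C content, so that content is no result. Its other window, not shown, had 39.6% G and C, 2 CG pairs, no GC box and 3 matches to TATAAA. These letters are a description of the windows. Cacna1c had 1 probeset, so its starts have no separate reading here. RefSeq windows were at hand for 7 of the 9 measured genes, all but Cacna1a and Cacna1h.

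Cacna1d, whose L-type channel opens at more negative voltages, read 9.41 and 9.24 on the Tg arrays, against 9.71 and 9.45 on the WT arrays. The groups did not overlap, but the lowest WT array lay only a little above the highest Tg array. The difference was -0.25 (SE 0.14, 95% confidence interval -0.59 to 0.09, limma adjusted p = 0.55) and did not pass the test.

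To ask whether the L-type pore genes changed unequally, the Cacna1d value was subtracted from the Cacna1c value within each array. The result was -0.23 and -0.11 on the Tg arrays, against 0.38 and 0.51 on the WT arrays, so both Tg values lay below both WT values. Only this shift can be read, since the zero point depends on the probes. The means were -0.17 ± 0.08 in Tg and 0.45 ± 0.10 in WT (SD, n = 2 each), a shift of -0.61. An exact two-sided permutation test gave p = 0.33, the smallest that this test allows with 2 arrays against 2, so it cannot reach 0.05 here.

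**Figure D1:**
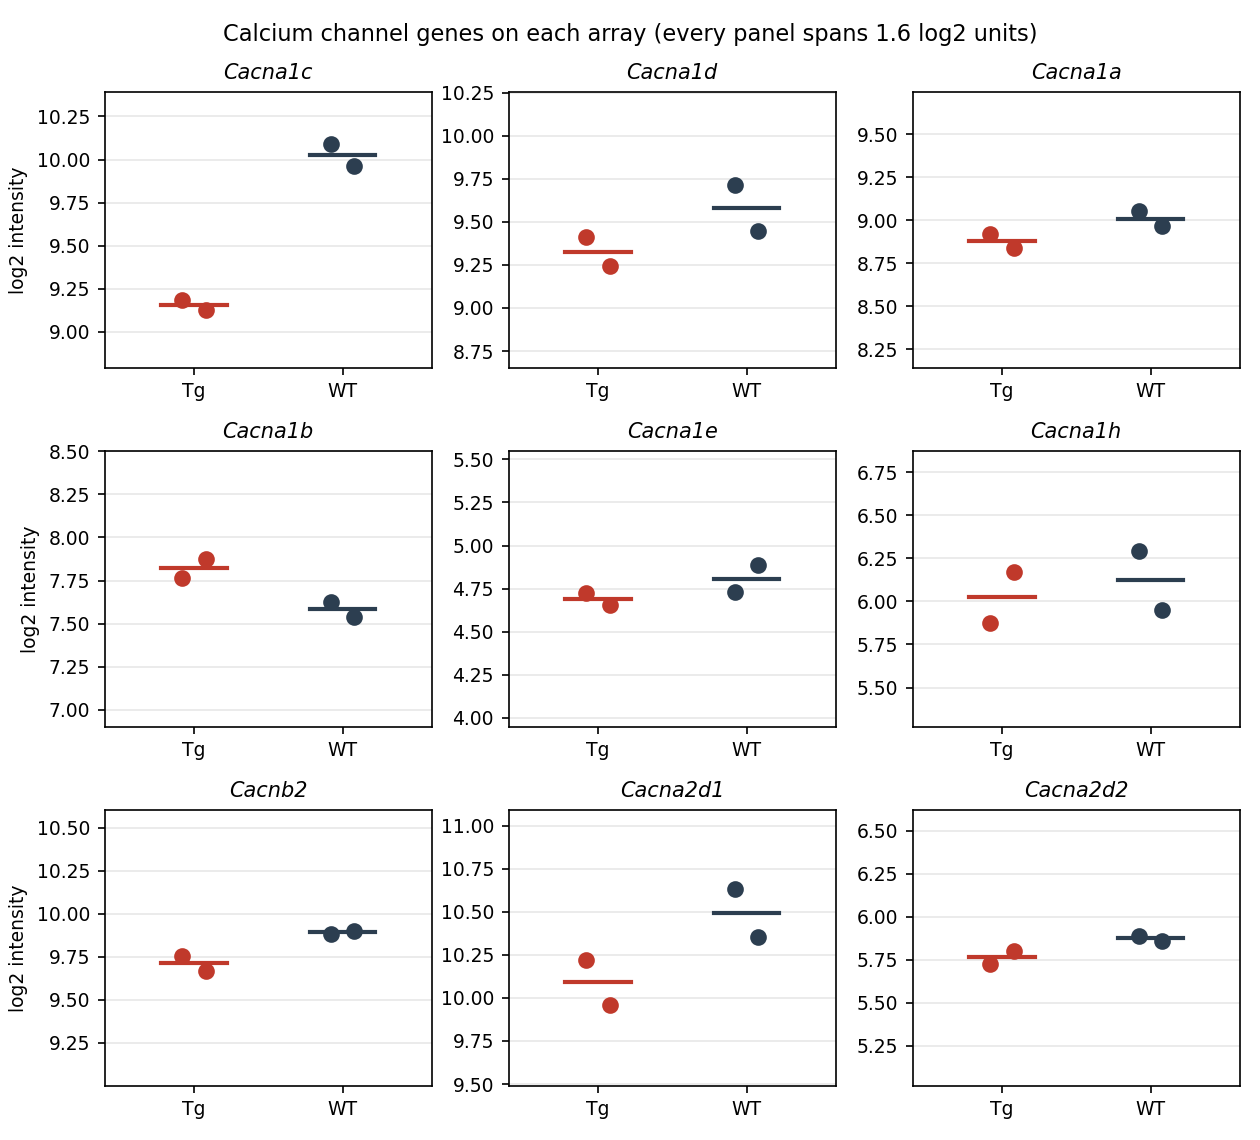
Log2 intensity of the 9 measured calcium channel genes on each array, with Tg on the left and WT on the right of every panel, points for arrays and bars for the mean of 2. Every panel spans the same number of log2 units but is centred on its own gene, so the levels shown differ between panels. Cacna1c has its Tg arrays at 9.19 and 9.13 and its WT arrays at 10.09 and 9.96, and in Cacna1h the groups overlap.

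The genes of the other high-voltage-activated pores showed smaller differences. Cacna1a, the P/Q-type pore that couples calcium entry to exocytosis in neurons and endocrine cells, read 8.92 and 8.84 in Tg, against 9.05 and 8.97 in WT (difference -0.13, SE 0.11, limma adjusted p = 0.72). Cacna1b, the N-type pore best known from presynaptic terminals, read 7.77 and 7.88 in Tg, against 7.63 and 7.54 in WT. It was the only member of the set with a positive difference (0.24, SE 0.11, 95% confidence interval -0.03 to 0.51, limma adjusted p = 0.47). In both genes the groups did not overlap and the test was not passed.

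Cacna1e, the R-type pore, read 4.72 and 4.66 on the Tg arrays, against 4.73 and 4.89 on the WT arrays. These values lay below the first quartile of tested genes on all 4 arrays, where background signal can compress differences, and its difference was -0.12 (SE 0.11, limma adjusted p = 0.77). The single low-voltage-activated pore of the set, the T-type gene Cacna1h, read 5.87 and 6.17 in Tg, against 6.29 and 5.95 in WT. Cacna1h lay below the median of tested genes on every array. Its groups overlapped, and the gaps between arrays of a group (0.30 in Tg and 0.34 in WT) exceeded the difference of -0.10 (SE 0.17, limma adjusted p = 0.89).

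Among the auxiliary subunits, Cacna2d1 had the second most negative difference of the set. It encodes an alpha2delta subunit, the protein that gabapentin binds, and read 10.22 and 9.96 in Tg, against 10.63 and 10.35 in WT. All Tg values lay below all WT values, with gaps of 0.26 and 0.28 between arrays of a group. The difference was -0.40 (SE 0.15, 95% confidence interval -0.77 to -0.03), with an unadjusted p of 0.039 and a limma adjusted p of 0.39, so it did not pass. Over all genes, 11.8% had an unadjusted p under 0.05. In the set 2 of 9 did, Cacna1c and Cacna2d1.

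Cacna2d2, a related alpha2delta gene, read 5.73 and 5.80 in Tg, against 5.89 and 5.86 in WT, below the median of tested genes on every array. Its difference was -0.11 (SE 0.10, limma adjusted p = 0.77). Within arrays, Cacna2d1 minus Cacna2d2 was 4.49 and 4.16 in Tg, against 4.74 and 4.49 in WT, so the higher Tg value met the lower WT value (shift -0.29, exact two-sided permutation p = 0.67).

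Cacnb2, which encodes a beta subunit that binds the pore from inside the cell, read 9.75 and 9.67 in Tg, against 9.88 and 9.90 in WT. The brighter probeset gave a difference of -0.18 (SE 0.10, 95% confidence interval -0.43 to 0.08, limma adjusted p = 0.58). The dimmer one read 5.39 and 5.51 in Tg, against 5.35 and 5.05 in WT, with a difference of 0.25 (SE 0.14, limma adjusted p = 0.58 among all single-gene probesets). The probesets thus differ in sign, neither passed, and their mean gave 0.03, so no direction is given for Cacnb2.

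Over the 9 genes, with Cacnb2 taken by its brighter probeset, 7 had both Tg arrays below both WT arrays and 1, Cacna1b, had both above. With the mean of probesets, 6 were lower without overlap. Over all genes, 23.7% were lower without overlap and 18.6% were higher without overlap, or 42.3% together. Genes brighter than the median were lower without overlap in 30.4%, and 6 of the 9 channel genes were brighter than it on every array. By sign 8 of 9 differences were below 0 (7 of 9 with the mean of probesets), against 54.3% of all genes and 60.0% of the brighter ones. The median difference was -0.13 in the set, against -0.02 over all genes and -0.04 over genes brighter than the median. The 9 genes are read from the same 4 arrays and were chosen with earlier results known, so these counts are a description, with no test.

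**Figure D2:**
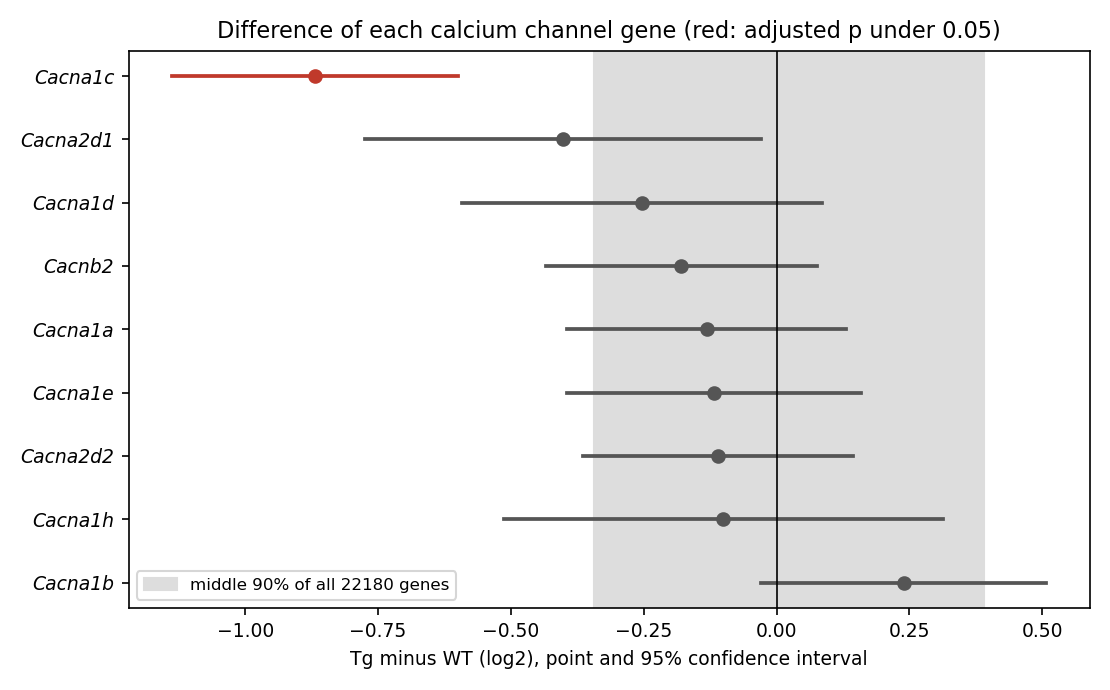
Tg minus WT differences (log2) of the 9 calcium channel genes with 95% confidence intervals from limma, and a band that holds the middle 90% of all genes, from -0.34 to 0.39. Cacna1c, in red, lies at -0.87 outside the band, Cacna2d1 at -0.40 lies just outside it, and the other 7 lie within it.

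The remaining subunit genes of the family showed no call. All 16 of them were measured (pores Cacna1f, Cacna1g, Cacna1i and Cacna1s, beta genes Cacnb1 and Cacnb4, alpha2delta genes Cacna2d3 and Cacna2d4, and 8 gamma genes), and 0 passed limma's adjusted threshold, with 2 at an unadjusted p under 0.05. Over all genes, 0.897% passed the adjusted threshold and 11.8% had an unadjusted p under 0.05. With 16 genes, a count of 0 is near that share. The median difference of the 16 genes was -0.02. The smallest p belonged to gamma subunit genes, Cacng4 (6.91 and 7.14 in Tg, against 7.63 and 7.37 in WT, difference -0.48) and Cacng3 (5.43 and 5.28 in Tg, against 5.72 and 5.60 in WT, difference -0.30). Cacng3 lay below the median of tested genes on every array. Gamma proteins of this kind are also known as partners of AMPA-type glutamate receptors.

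Among 13 measured regulators and partners of the channels, 1 passed limma's adjusted threshold, higher in Tg, and 3 had an unadjusted p under 0.05. Over all genes, 11.8% had an unadjusted p that low. The gene that passed was Gem, a small GTPase of the RGK family that binds beta subunits and inhibits high-voltage-activated calcium channels. Gem read 9.02 and 8.83 on the Tg arrays, against 8.03 and 8.10 on the WT arrays, a 1.81-fold higher value with no overlap. Its difference of 0.86 (SE 0.12, 95% confidence interval 0.57 to 1.15) had a limma adjusted p of 0.047, just inside the threshold. Of all genes, 0.672% passed with a higher value in Tg. The related RGK genes Rem2 (difference 0.16) and Rrad (0.19) did not pass. By sign 7 of the 13 were lower, against 54.3% of all genes, and the list's median difference was -0.01.

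Among 17 measured channels that set the membrane potential, 1 passed limma's adjusted threshold, higher in Tg, and 7 had an unadjusted p under 0.05. Over all genes, 0.672% passed with a higher value in Tg and 11.8% had an unadjusted p under 0.05. Scn9a, the pore of a voltage-gated sodium channel, read 9.88 and 9.67 in Tg, against 8.21 and 8.01 in WT, and was 3.16-fold higher (difference 1.66, SE 0.13, limma adjusted p = 0.012). Both Tg arrays lay far above both WT arrays relative to the gaps within a group. The potassium channel genes whose products close upon glucose metabolism, Kcnj11 (-0.01) and its sulfonylurea receptor partner Abcc8 (-0.07), did not pass. Other genes of the list were lower in Tg at an unadjusted limma p under 0.05, and did not pass either. They were the potassium channel genes Kcnk16 (-0.67), Kcnn3 (-0.54), Kcnn2 (-0.46) and Kcnma1 (-0.32), with Scn8a (-0.51) and Trpm4 (-0.45). Kcnn2 lay below the median of tested genes on every array. The list's median was -0.18, against -0.02 over all genes and -0.04 over genes brighter than the median. Of its 17 differences 14 were below 0, against 54.3% of all genes and 60.0% of those brighter than the median.

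Calcium stores and clearance had 0 of 23 measured genes past limma's adjusted threshold, 7 at an unadjusted p under 0.05 (11.8% of all genes were) and a median difference of -0.09. The lowest was Itpr3, an inositol trisphosphate receptor that releases calcium from the endoplasmic reticulum, with 8.38 and 8.11 in Tg, against 8.98 and 9.21 in WT (difference -0.85, limma adjusted p = 0.084). The mean of its probesets gave -0.46, and with a variance trend and a robust prior its adjusted p was 0.0361. Atp2a1, a calcium pump best known from skeletal muscle, followed by p (difference -0.43), and lay below the median of tested genes on every array. Granule exocytosis had 0 of 14 past limma's adjusted threshold and 2 at an unadjusted p under 0.05, with a median of -0.03, the priming factor Unc13a at -0.40 and the calcium sensor Syt7 at -0.33. Calcium-activated kinases and transcription had 0 of 14 past it and 2 at an unadjusted p under 0.05, with a median of -0.07, the kinase Camk4 at 0.42 (0.22 with the mean of its probesets) and the calcineurin target Nfatc2 at -0.35. Camk4 lay below the median of tested genes on every array. In all, 2 of the 97 measured genes in these 6 lists passed, both higher in Tg, against 0.672% of all genes that passed higher. In either direction, 0.897% of all genes passed.

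**Figure D3:**
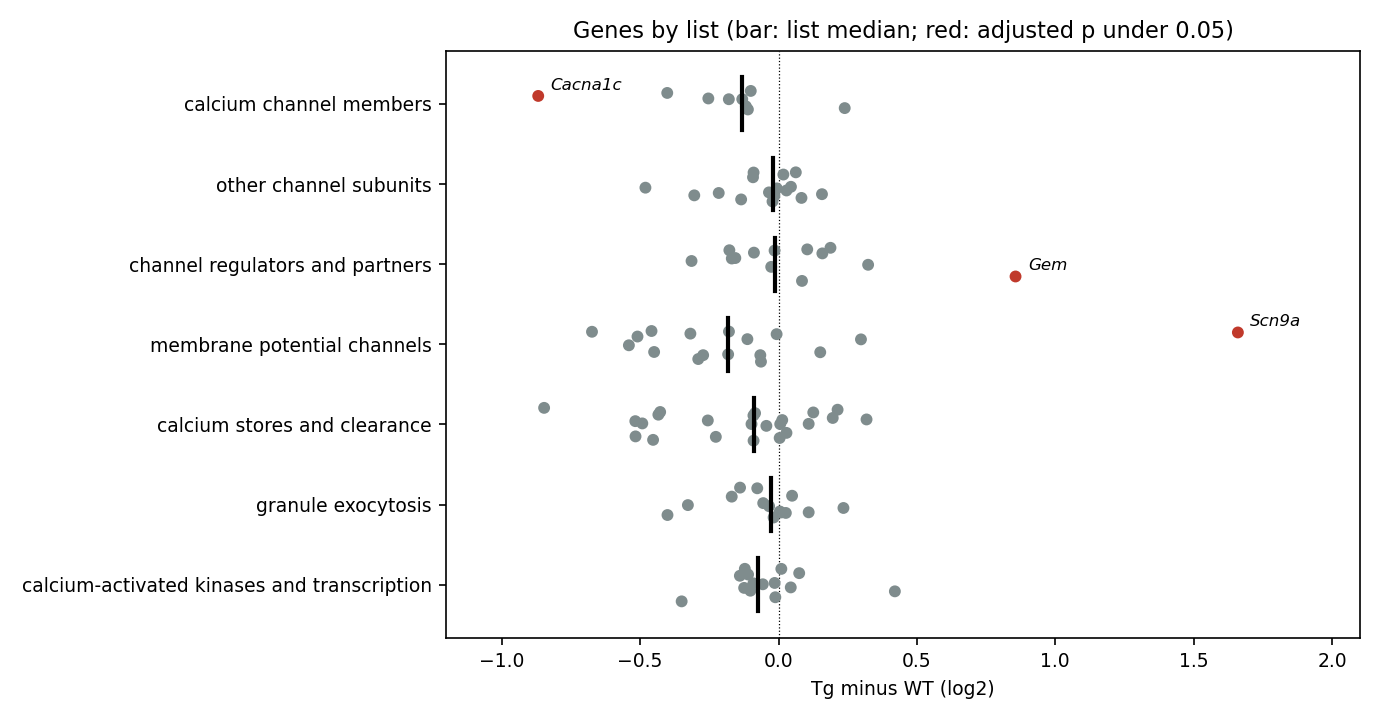
Tg minus WT differences (log2) of the calcium channel set and of the 6 other lists, with a point for each gene and a bar at each list's median. The red points are the genes past the adjusted threshold, Cacna1c at -0.87, Gem at 0.86 and Scn9a at 1.66.

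Marker lists of other cell types are set here beside Cacna1c, Gem and Scn9a. Counts are by sign, and 54.3% of all genes were lower in Tg by sign. Of all 12 lists 1 marker passed the test, the duct gene Cftr, which was higher in Tg. Of all genes, 0.897% passed, and 0.672% passed with a higher value in Tg. The other 3 duct markers were lower by sign, Krt19 (-0.01), Krt7 (-0.03) and Sox9 (-0.53). A sum is weighted to the brightest probesets of its list and does not measure the amount of a cell type. Immune markers were higher in Tg for 6 of 6 measured genes, with summed linear intensities of 2256 to 2509 in Tg, against 1250 to 1396 in WT. Endothelial markers were higher for 6 of 6 (2871 to 3679 in Tg, against 2148 to 2358 in WT). Smooth muscle and pericyte markers, from cells that also use L-type channels, were higher for 7 of 8 (1709 to 1828 in Tg, against 1466 to 1496 in WT). Fibroblast markers were higher by sign for 5 of 5 (790 to 1141 in Tg, against 405 to 480 in WT), with Lum below the first quartile on every array. Without Dcn, left out after its values were seen, the other 4 summed to 252 to 263 in Tg, against 224 to 264 in WT, and each overlapped between groups.

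Alpha cell markers were lower for 3 of 3 measured genes (11418 to 11936 in Tg, against 12942 to 13294 in WT), and delta cell markers for 2 of 2 (7554 to 9151 in Tg, against 9609 to 11202 in WT). The alpha sum mostly reads Gcg (difference -0.15), while the dimmer Irx1 (-0.67) and Irx2 (-0.86) add little to it. Beta cell markers were higher for 3 and lower for 5 of 8, with overlapping sums of 25571 to 26703 in Tg, against 24743 to 28476 in WT. The beta sum is weighted to the bright Iapp (difference 0.06) and Ins2 (0.04). Among the dimmer beta markers, Ucn3 (-0.60) and Mafa (-0.14) were lower without overlap, as were 23.7% of all genes, and 0 were higher without overlap. Neither Ucn3 nor Mafa passed the test. The PP cell marker Ppy summed to 12858 to 14183 in Tg, against 12595 to 13256 in WT. Acinar sums (29338 to 35521 in Tg, against 24813 to 39237 in WT) and duct sums (947 to 1047 in Tg, against 664 to 1427 in WT) overlapped. Schwann markers had 105 to 115 in Tg, against 115 to 117 in WT, with S100b below the first quartile throughout. Peripheral neuron markers, with 1 higher and 2 lower of 3, had 369 to 372 in Tg, against 404 to 528 in WT. Th, the brightest of them, read 8.23 and 8.15 in Tg, against 8.79 and 8.37 in WT. Dbh (difference 0.02) and Prph (-0.03) overlapped between groups and lay below the median of tested genes on every array. The part of these cell types in the differences of Cacna1c, Gem and Scn9a was not tested.

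The 4 genes outside the set whose array profile came nearest to that of Cacna1c, after each was centred on its own mean over the 4 arrays, were Nectin1, Vipr1, Rgs7bp and Itgb8. Euclidean distances were 0.053, 0.089, 0.096 and 0.097 log2 units, among genes brighter than the median. Nectin1, a cell adhesion molecule, read 7.83 and 7.82 in Tg, against 8.77 and 8.67 in WT. Vipr1, a receptor for vasoactive intestinal peptide, read 7.72 and 7.77 in Tg, against 8.63 and 8.49 in WT. Rgs7bp, which binds regulators of G protein signalling, read 7.85 and 7.73 in Tg, against 8.73 and 8.69 in WT, and the integrin subunit gene Itgb8 read 7.72 and 7.66 in Tg, against 8.54 and 8.39 in WT. Likeness over 4 arrays reflects mostly the step between the groups, and is given as a description.

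The call of Cacna1c was lost whenever an array was left out. Such a fit leaves 1 array in a group, assumed to vary like the other group, and has fewer degrees of freedom, so a lost call does not show a smaller difference. With 1 array left out in turn the difference ran from -0.93 to -0.80. The limma adjusted p was 0.209 without Tg replicate 1, 0.185 without Tg replicate 2, 0.0981 without WT replicate 1 and 0.0905 without WT replicate 2. Gem likewise kept differences of 0.76 to 0.95 and had adjusted p-values of 0.262, 0.138, 0.126 and 0.122 in the same order. Scn9a was at 1.55 to 1.77, and passed without WT replicate 1 (0.0292) and without WT replicate 2 (0.0444) but not without Tg replicate 1 (0.0873) or Tg replicate 2 (0.0523). Without variance moderation, adjusted p-values were 0.472 for Cacna1c, 0.522 for Gem and 0.477 for Scn9a. With the replicate block they were 0.149, 0.197 and 0.066 in that order. Of the members not called, Cacna1d lay between -0.39 (without WT replicate 2) and -0.12 (without WT replicate 1) and Cacna2d1 between -0.54 (without WT replicate 2) and -0.26 (without WT replicate 1). Cacna1e lay between -0.20 (without WT replicate 1) and -0.04 (without WT replicate 2). Cacna1h turned positive without Tg replicate 1 (0.05) and without WT replicate 1 (0.07), and was at -0.27 without WT replicate 2.

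**Figure D4:**
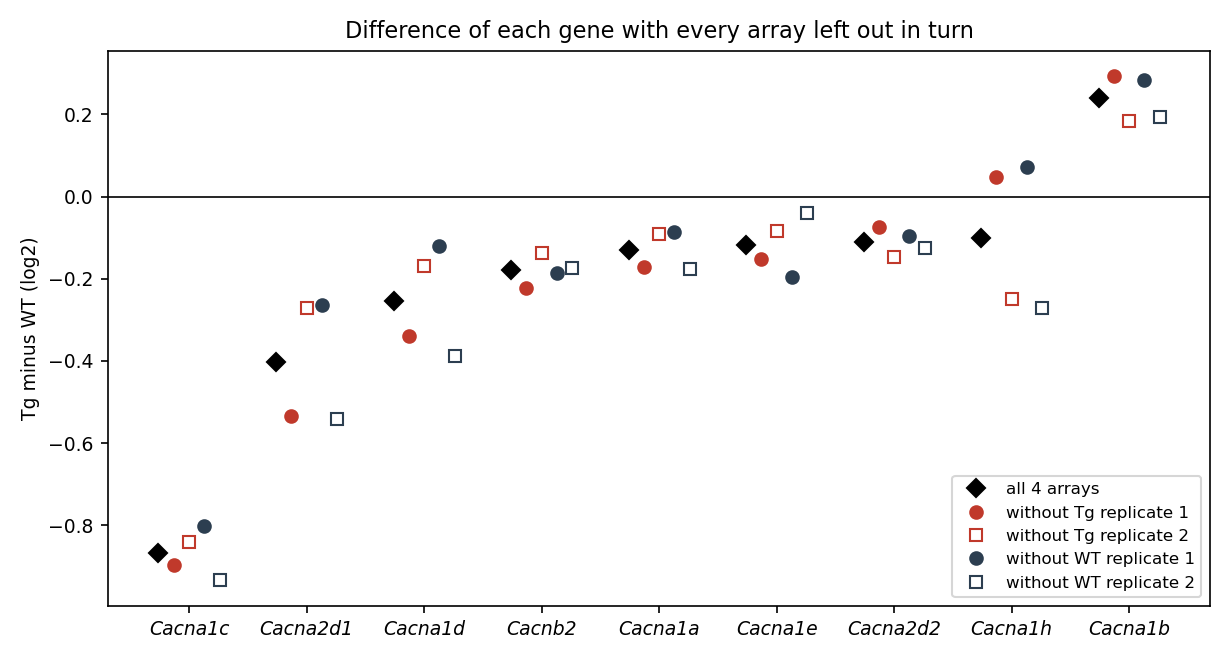
Tg minus WT difference (log2) of each of the 9 calcium channel genes with all 4 arrays (diamond) and with every array left out in turn. Cacna1c stays between -0.93 and -0.80 and Cacna1b between 0.18 and 0.29, while Cacna1h lies on both sides of 0.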

How the data were processed

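Islet total RNA (250 ng a sample) was labelled and hybridised, per the labels, to Affymetrix Mouse Gene 2.0 ST arrays. The authors deposited log2 values, a scale recognised by its range, and made them with Partek and RMA, per the submitters' processing notes, which give no versions. RMA normalises arrays to each other, so a change shared by most genes would not appear. The build behind the probes is not stated in the sources. The number of arrays limits the precision.

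Probesets paired with exactly 1 gene symbol were used (23521 of 27037), the brightest by mean standing for its gene, with no filter on dim genes. Groups came from the sample titles. Differences were fitted in R 4.3.3 by limma 3.58.1 (lmFit, eBayes; 2 residual and 3.76 prior degrees of freedom), with Benjamini-Hochberg adjustment over all genes. Pairs of genes were compared within arrays by an exact permutation test. The planned Cacnb2 with Cacnb3 comparison was not run, since Cacnb3 had no probeset of its own in the annotation used.

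The members and lists were chosen with earlier results of these data known. All members were named, with every gene of a list past the threshold or otherwise the 2 with the smallest p, and the 4 genes most like Cacna1c. Rem2, Rrad, Kcnj11 and Abcc8 were named outside this rule, for their roles, after their values were seen. Kcnk16, Kcnn3, Kcnn2, Kcnma1, Scn8a and Trpm4 were also named outside it, for their unadjusted p. Of the 108 genes in the 6 other lists, 11 had no probeset of their own in the annotation used. Marker lists covered 12 cell types. Alternatives changed the use of probesets, the level filter, the normalisation, the variance model, the replicate block and the arrays included.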

Additional observations from a re-analysis of the deposited data

How the results depend on the processing

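All alternatives were planned. Against 1 calcium channel gene past the adjusted threshold, Cacna1c, the count was 1 under 8 alternatives (mean of probesets, every probeset, all rows of the table, the level filter, quantile normalisation, centring, and an intensity trend in the variance, alone or with a robust prior). It was 0 without moderation (1 at an unadjusted p under 0.05), 0 with the replicate block (2 at an unadjusted p under 0.05, adjusted p = 0.149 for Cacna1c) and 0 with each limma fit that left out 1 array (1 to 3 at an unadjusted p under 0.05). Over all genes, limma's 199 calls became 347 with the trend and robust prior and 0 without moderation (1928 genes had an unadjusted p under 0.05, and 2627 in limma). They became 24 with the replicate block and 38 to 135 with 1 array left out. As far as the labels show, arrays with the same number share only that number. Their deviations correlated at -0.063 over genes, and the block leaves 1 fewer residual degree of freedom. The adjusted p of Cacna1c ranged from 0.0102 to 0.472 over 14 alternatives. Members not called stayed so in 109 of 109 alternatives, and 3 of these turned a sign. Cacnb2 was at 0.035 with the mean of probesets, and Cacna1h was at -0.27 to 0.071 with 1 array left out. Ins2 was at -0.016 to 0.096 there. The shift of Cacna1c minus Cacna1d lay between -0.68 and -0.55 and that of Cacna2d1 minus Cacna2d2 between -0.46 and -0.12 with 1 array left out. Apart from the dimmer Cacnb2 probeset, which shifts its mean, the cause was not tested. Signal below the first quartile limits Cacna1e.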
